A study of Mus musculus with 8 samples.

Results

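The BCL2 family genes that set the threshold for mitochondrial apoptosis were followed in mouse mammary glands exposed to tumor-derived small extracellular vesicles (sEVs). The members are a list of gene names with no threshold on measured values: Bcl2, Bcl2l1, Mcl1, Bax, Bak1, Bid, Bad, Bcl2l11, Bbc3 and Pmaip1, which are 10 of the 51789 genes in the deposited count table. All 10 had enough counts to be tested, among 17858 genes tested in all. Female C57BL/6 mice with an intact immune system received a single injection into the abdominal mammary gland, and polyA RNA of the gland was sequenced weeks later. The injected sEVs came from the AT3 line, which derives from a metastatic adenocarcinoma of the mouse mammary gland, cultured in normoxia (sEVNORM, labelled normoxia exosomes, 3 libraries) or hypoxia (sEVHYP, labelled hypoxia exosomes, 2 libraries). Control glands received sEVCTRL, prepared from medium that had not been conditioned by cells (labelled control, 3 libraries). The labels give no age, and sEVs of 1 cell line were used. The comparisons ask whether exposure to AT3 sEVs, and hypoxia of the cells that released them, went with a different level of these transcripts.

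Mitochondrial apoptosis is decided by protein contacts within this family. The guardians Bcl-2 (Bcl2), Bcl-xL (Bcl2l1) and Mcl-1 (Mcl1) hold the effectors Bax and Bak in check. Once released, the effectors permeabilize the outer mitochondrial membrane, and cytochrome c then drives caspase activation. The BH3-only proteins Bid, Bad, Bim (Bcl2l11), Puma (Bbc3) and Noxa (Pmaip1) report stress and bind the guardians through a short helix, the BH3 domain, and some of them also engage the effectors. In the mammary gland the family is known for its part in duct hollowing and in the removal of milk-producing epithelium after weaning, whereas in lymphocytes it governs survival. A transcript count says nothing of phosphorylation, cleavage or turnover, through which several members, Bad, Bid and Mcl-1 above all, are controlled. A gene count also adds up isoforms that can act in opposite directions, such as the long and short products of Bcl2l1 and of Mcl1.

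The stretch that encodes the core of the BH3 domain is shown for 9 members because it is the feature that defines the family and through which the proteins compared here bind each other. Each is the coding strand of GRCm38, read from the GENCODE annotation, and each lies within 1 coding exon. The capitals mark the codon of the first leucine and the codon of the aspartate in the pattern leucine, any 3 residues, then glycine, alanine or serine, then aspartate. This pattern was found once in the translated coding sequence of each of these 9 members. Pmaip1 was left out of the search, so its absence from the list says nothing of its sequence. A match to this pattern is a description of the sequence and not a measurement of binding.
Bcl2, chr1:106712575-106712601, minus strand: CTCcgccgggctgggGATgacttctct
Bcl2l1, chr2:152829697-152829723, minus strand: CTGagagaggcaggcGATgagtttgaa
Mcl1, chr3:95659436-95659462, plus strand: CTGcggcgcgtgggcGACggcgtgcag
Bax, chr7:45465997-45466023, minus strand: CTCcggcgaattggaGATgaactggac
Bak1, chr17:27022531-27022557, minus strand: CTTgctctcatcggaGATgatattaac
Bid, chr6:120897289-120897315, minus strand: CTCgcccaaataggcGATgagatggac
Bad, chr19:6950792-6950818, plus strand: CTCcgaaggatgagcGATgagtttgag
Bcl2l11, chr2:128147150-128147176, plus strand: CTGcggcggatcggaGACgagttcaac
Bbc3, chr7:16313773-16313799, plus strand: CTGcggcggatggcgGACgacctcaac
Between members, the stretch was most alike in Bcl2l11 and Bbc3, with 22 of 27 bases identical, and least alike in Bcl2 and Bak1, with 11 of 27. The encoded proteins ran from 192 residues for Bax to 331 for Mcl1 among these 9.

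Total counts per library ranged from 18194996 to 24622569. Levels are given as counts scaled to a common library size (CPM) after TMM normalization, and differences as log2 fold changes from the quasi-likelihood test of edgeR, two-sided, on all 17858 genes, with Benjamini-Hochberg adjustment over all of them. The cell make-up of the glands varied widely. Summed over 12 markers each, skeletal muscle transcripts ran from 37.7 CPM in sEVNORM replicate 2 to 15903 CPM in sEVHYP replicate 2, and luminal epithelial transcripts from 975 to 2238 CPM. The 9 B cell markers summed to between 849 CPM in sEVHYP replicate 2 and 2925 CPM in sEVNORM replicate 2, and the 10 white adipocyte markers to between 9487 and 17270 CPM. None of the luminal, basal, adipocyte, B cell or T cell markers was at 0 in any library, and the markers of the labelled tissue were therefore present throughout. In RNA from whole glands, fewer cells of a type and less RNA per cell cannot be told apart.

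Mcl1 was the dominant transcript of the members in every library. Per kilobase of exon, the only scale on which levels of different genes are compared here, Mcl1 stood at 87.6 ± 13.5 CPM per kilobase (SD, n = 8), which put it at percentile 97.0 of all genes tested. That was 9.90-fold above Bak1, the next member at 8.85 ± 1.57, and the ranges of these neighbours did not overlap. Bax, the other effector, followed at 7.74 ± 1.49, Bcl2 at 7.28 ± 1.22 and Bid at 7.05 ± 1.56 CPM per kilobase. Next came Pmaip1 at 6.05 ± 2.18, Bcl2l11 at 5.43 ± 0.770 and Bcl2l1 at 3.85 ± 0.671. From Bak1 down to Bcl2l1 each member's range over the 8 libraries overlapped that of its neighbour, so the order of neighbours in this middle group is not resolved by their spread. Members farther apart could be separate. With the exon union as the length, the highest Bcl2l1 library, at 5.04, lay below the lowest of Bcl2 (5.53), Bax (5.98) and Bak1 (6.42). With the longest transcript in place of the exon union as the length, Bax ranked the second and Bak1 the fifth, while Mcl1 kept the first place and Bad and Bbc3 the last ones. Bad, at 1.78 ± 0.486, lay below every library of Bcl2l1, and Bbc3, at 0.481 ± 0.202 CPM per kilobase, lay below every library of Bad.

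Expressed as a share of the summed level per kilobase of the 10 members, the guardians made up 68.3% to 77.2% of the total in the 8 libraries, and Mcl1 alone 59.0% to 68.6%. The effectors held 9.98% to 16.4% and the BH3-only genes 12.8% to 16.3%. These shares of the guardians, Mcl1, the effectors and the BH3-only genes overlapped across the 3 treatments, but those of some single members did not. Bax, for example, held 4.94% and 4.84% with sEVHYP and from 5.23% to 6.95% in the other libraries. The shares were not tested. Bcl2l1 contributed between 1.93% and 4.33%, with its highest share in sEVCTRL replicate 3.

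**Figure D1:**
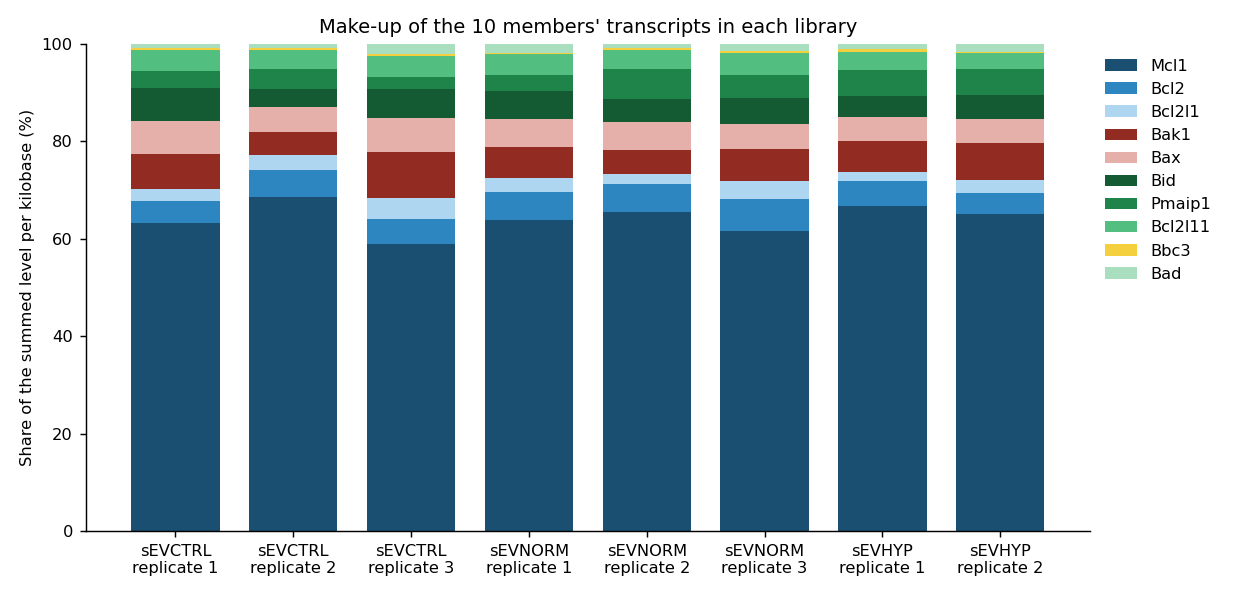
Stacked bars give, for each of the 8 libraries on the horizontal axis, the percentage of the 10 members' summed level per kilobase of exon (vertical axis) that each gene held. Blue shades are guardians, red shades effectors, and green and yellow shades BH3-only genes. Mcl1 filled 59.0% to 68.6% of every bar.

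Among the guardians, Bcl2l1 was the member with the clearest difference between treatments. It encodes Bcl-xL, a guardian of the mitochondrial membrane in epithelium and in many other cell types, and lies on the minus strand of chromosome 2 from 152780668 to 152831728 (GRCm38). Bcl2l1 was at 17.3, 19.4 and 23.1 CPM with sEVCTRL, at 17.8, 16.4 and 19.3 CPM with sEVNORM, and at 13.0 and 14.9 CPM with sEVHYP. Both sEVHYP libraries lay below all other 6 libraries, whereas the sEVNORM and sEVCTRL libraries overlapped. The log2 fold change of sEVHYP against sEVCTRL was -0.51 (SE 0.19, 95% interval -0.95 to -0.08, edgeR unadjusted P = 0.0253), and it did not pass adjustment over all genes (adjusted P = 1.00 after rounding). Against sEVNORM it was -0.35 (SE 0.19, 95% interval -0.78 to 0.08, edgeR unadjusted P = 0.0995), and for sEVNORM against sEVCTRL -0.16 (SE 0.17). The call rested on single libraries: without sEVCTRL replicate 3, the highest library, it was -0.40 (edgeR unadjusted P = 0.0638), and without sEVHYP replicate 1, the lowest, -0.42 (unadjusted P = 0.153). It was also lost when edgeR was fitted on only these groups (-0.51, unadjusted P = 0.0590) and with DESeq2 on the same groups (-0.52, unadjusted P = 0.0570). With B and T cell markers as a covariate the log2 fold change was -0.57 (edgeR unadjusted P = 0.0116), and with skeletal muscle markers -0.56 (unadjusted P = 0.0202). Markers of endothelium, the lining of blood vessels, were lower in the same comparison: 7 of 7 had a negative log2 fold change for sEVHYP against sEVCTRL (median -0.21), 2 of them with libraries that did not overlap and 0 with an edgeR unadjusted P under 0.05. Over all genes tested in this comparison, 9383 of 17858 were lower and 12.8% did not overlap. The 7 endothelial markers summed to 584, 694 and 722 CPM with sEVCTRL, 586, 559 and 682 CPM with sEVNORM and 538 and 627 CPM with sEVHYP, and none of the 7 was at 0. Their part in the Bcl2l1 difference was not tested.

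Bcl2, the founding guardian and a survival factor of lymphocytes and of luminal epithelium, was at 63.3, 67.9 and 53.7 CPM with sEVCTRL, at 69.7, 86.3 and 72.2 CPM with sEVNORM, and at 69.4 and 50.6 CPM with sEVHYP. All sEVNORM libraries were above all sEVCTRL libraries and above both sEVHYP libraries, although sEVHYP replicate 1 and sEVNORM replicate 1 differed by less than 1 CPM. The log2 fold change was 0.30 for sEVNORM against sEVCTRL (SE 0.17, 95% interval -0.08 to 0.69, edgeR unadjusted P = 0.109). For sEVHYP against sEVNORM it was -0.34 (SE 0.19, 95% interval -0.78 to 0.09, edgeR unadjusted P = 0.110). Neither passed the threshold, and against sEVCTRL the sEVHYP value was -0.04 (SE 0.19). The difference from sEVNORM rested largely on sEVHYP replicate 2: it was -0.13 without that library and -0.59 without sEVHYP replicate 1 (edgeR unadjusted P = 0.0374). In sEVHYP replicate 2, the B cell marker sum was also the lowest of all libraries, and with B and T cell markers as a covariate the difference was -0.27. Over all libraries, the r of Bcl2 with B cell markers was 0.63 (exact permutation P = 0.0885, adjusted 0.303). It was -0.15 without sEVHYP replicate 2 and sEVNORM replicate 2. The part of B cell content in the Bcl2 difference was not tested.

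Mcl1, a short-lived guardian needed by many cell types, was at 329, 317 and 235 CPM with sEVCTRL, at 291, 369 and 247 CPM with sEVNORM, and at 334 and 274 CPM with sEVHYP. The 3 groups overlapped, and no group held both of the extreme libraries. Its log2 fold change was 0.01 for sEVHYP against sEVNORM (95% interval -0.51 to 0.53), 0.05 for sEVHYP against sEVCTRL (95% interval -0.46 to 0.57) and 0.04 for sEVNORM against sEVCTRL (95% interval -0.42 to 0.50). These intervals still allow a change of about 0.5 on the log2 scale in either direction.

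**Figure D2:**
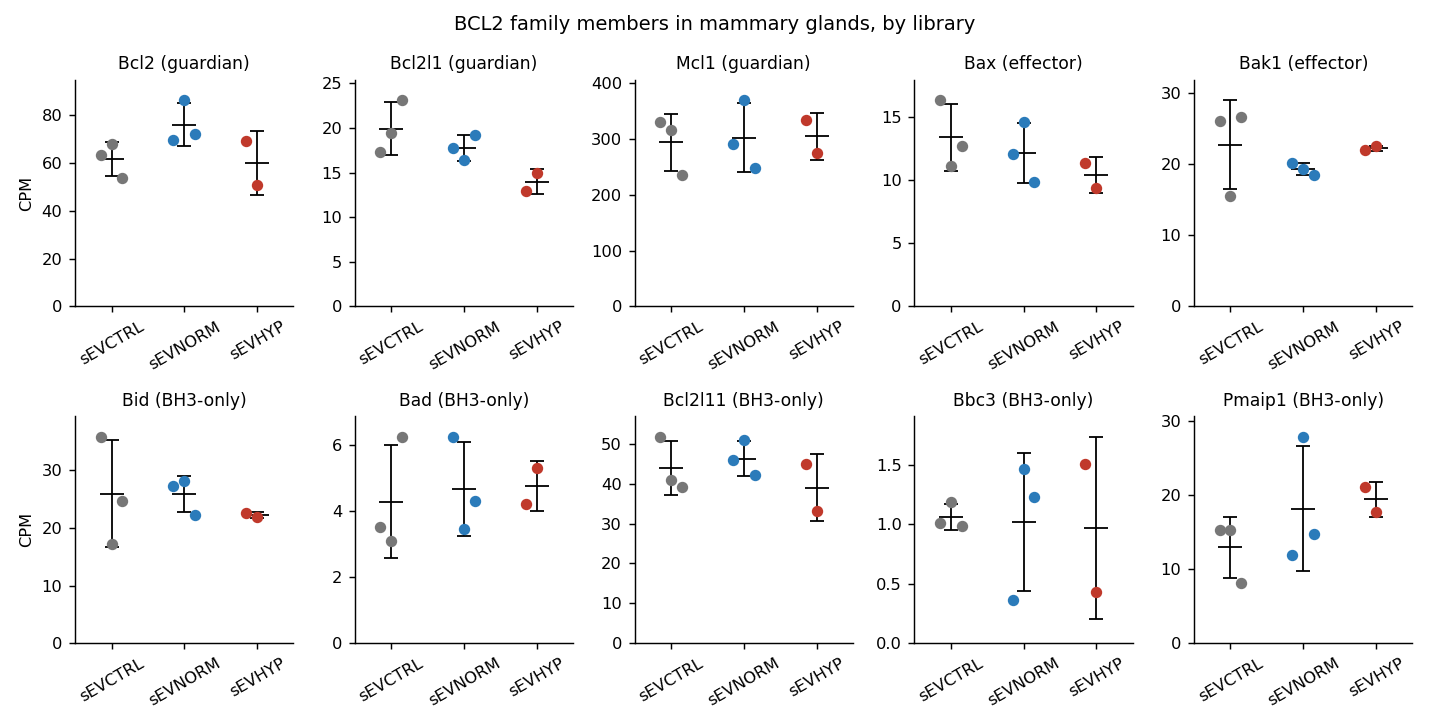
Each panel plots 1 member in CPM (vertical axis, from 0) for each library, with sEVCTRL in gray, sEVNORM in blue and sEVHYP in red. Black lines give the mean and SD of a group (n = 3, 3 and 2). The 2 sEVHYP points of Bcl2l1, at 13.0 and 14.9 CPM, lie below the other 6 points.

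The effectors Bax and Bak1 encode the proteins that form pores in the outer mitochondrial membrane, and neither passed the threshold in any comparison. Bax was at 16.4, 11.1 and 12.7 CPM with sEVCTRL, at 12.1, 14.6 and 9.84 CPM with sEVNORM, and at 11.4 and 9.42 CPM with sEVHYP, and all groups overlapped. The lowest library was sEVHYP replicate 2 and the highest sEVCTRL replicate 1. Its log2 fold change was -0.36 for sEVHYP against sEVCTRL (SE 0.25, 95% interval -0.93 to 0.20, edgeR unadjusted P = 0.182) and -0.23 against sEVNORM (SE 0.25). The value against sEVNORM changed sign with skeletal muscle markers as a covariate. Bak1 was at 26.1, 15.5 and 26.5 CPM with sEVCTRL, at 20.2, 19.3 and 18.4 CPM with sEVNORM, and at 22.0 and 22.5 CPM with sEVHYP. Both sEVHYP libraries were above the 3 sEVNORM libraries, which lay close together, while the sEVCTRL libraries spanned the whole range. The log2 fold change of sEVHYP against sEVNORM was 0.20 (SE 0.24, 95% interval -0.33 to 0.74, edgeR unadjusted P = 0.412). For sEVNORM against sEVCTRL it was -0.23 (SE 0.21), and -0.45 (edgeR unadjusted P = 0.0128) without sEVCTRL replicate 2, the lowest library.

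Of the BH3-only genes, Pmaip1 varied most between treatments. It encodes Noxa, a p53 and stress-induced protein that binds Mcl-1. Pmaip1 was at 15.3, 15.3 and 8.15 CPM with sEVCTRL, at 11.95, 27.8 and 14.8 CPM with sEVNORM, and at 21.1 and 17.7 CPM with sEVHYP. Both sEVHYP libraries were above all sEVCTRL libraries and inside the range of the sEVNORM libraries. The log2 fold change was 0.59 for sEVHYP against sEVCTRL (SE 0.38, 95% interval -0.28 to 1.46, edgeR unadjusted P = 0.161), 0.10 for sEVHYP against sEVNORM (SE 0.39) and 0.49 for sEVNORM against sEVCTRL (SE 0.35, edgeR unadjusted P = 0.192). The last value was 0.05 without sEVNORM replicate 2, the library with 27.8 CPM. With skeletal muscle markers as a covariate, sEVHYP against sEVCTRL was at 0.76 (edgeR unadjusted P = 0.0374).

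Bcl2l11 encodes Bim, which is needed for the deletion of lymphocytes and acts in the hollowing of mammary ducts. It was at 51.7, 40.9 and 39.2 CPM with sEVCTRL, at 45.9, 50.9 and 42.1 CPM with sEVNORM, and at 45.0 and 33.0 CPM with sEVHYP. The groups overlapped and sEVHYP replicate 2 was the lowest library. Its log2 fold change of sEVHYP against sEVNORM was -0.25 (SE 0.20, 95% interval -0.69 to 0.20, edgeR unadjusted P = 0.246), and -0.04 without sEVHYP replicate 2. Bid, which links death receptors to mitochondria once caspases cleave it, was at 35.8, 17.3 and 24.7 CPM with sEVCTRL, at 27.3, 28.2 and 22.3 CPM with sEVNORM, and at 22.6 and 21.9 CPM with sEVHYP. The sEVCTRL libraries held both the highest and the lowest value, and the log2 fold change was -0.22 (SE 0.28) for sEVHYP against either group. Both of these Bid values changed sign under some of the alternatives given below.

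Bad, a growth factor-sensing protein that binds Bcl-2 and Bcl-xL unless it is phosphorylated, was scarce, at 3.50, 3.10 and 6.24 CPM with sEVCTRL, 6.23, 3.46 and 4.30 CPM with sEVNORM, and 4.21 and 5.30 CPM with sEVHYP. Its groups overlapped, with log2 fold changes of 0.03 (95% interval -0.84 to 0.89) for sEVHYP against sEVNORM and 0.15 (95% interval -0.72 to 1.02) against sEVCTRL. Bbc3, which encodes the p53 target Puma, had 8 to 33 counts per library. It was at 1.02, 1.19 and 0.985 CPM with sEVCTRL, at 0.362, 1.46 and 1.23 CPM with sEVNORM, and at 1.51 and 0.428 CPM with sEVHYP. The sEVHYP pair thus included the highest library and the second lowest one, and the 95% interval of the log2 fold change against sEVNORM ran from -1.60 to 1.497. This interval still allows a wide range of differences in either direction.

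Counted over the 10 members, 0 passed an unadjusted P of 0.05 in edgeR between sEVHYP and sEVNORM, where 3.95% of all genes did. For sEVHYP against sEVCTRL 1 member passed, Bcl2l1, against a background of 2.45%, and for sEVNORM against sEVCTRL 0 passed, against 1.62%. After Benjamini-Hochberg adjustment edgeR called 0 members and 0% of all genes in each comparison. DESeq2, fitted on only the groups compared, gave 0 members with an unadjusted P under 0.05 in each comparison. Libraries of both groups did not overlap for 3 members between sEVHYP and sEVNORM (Bcl2l1 and Bcl2 lower, Bak1 higher with sEVHYP), where 22.8% of all genes did so. The corresponding members were Bcl2l1, lower, and Pmaip1, higher, for sEVHYP against sEVCTRL (background 12.8%), and Bcl2, higher, for sEVNORM against sEVCTRL (background 4.86%). With 10 members, each of these counts lies within 1 gene of its background share. The median log2 fold change of the members was -0.14 for sEVHYP against sEVNORM, -0.08 for sEVHYP against sEVCTRL and 0.02 for sEVNORM against sEVCTRL, beside -0.02, -0.02 and -0.00 over all genes tested. All comparisons with sEVHYP use the same 2 libraries, and both comparisons with sEVCTRL the same controls.

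**Figure D3:**
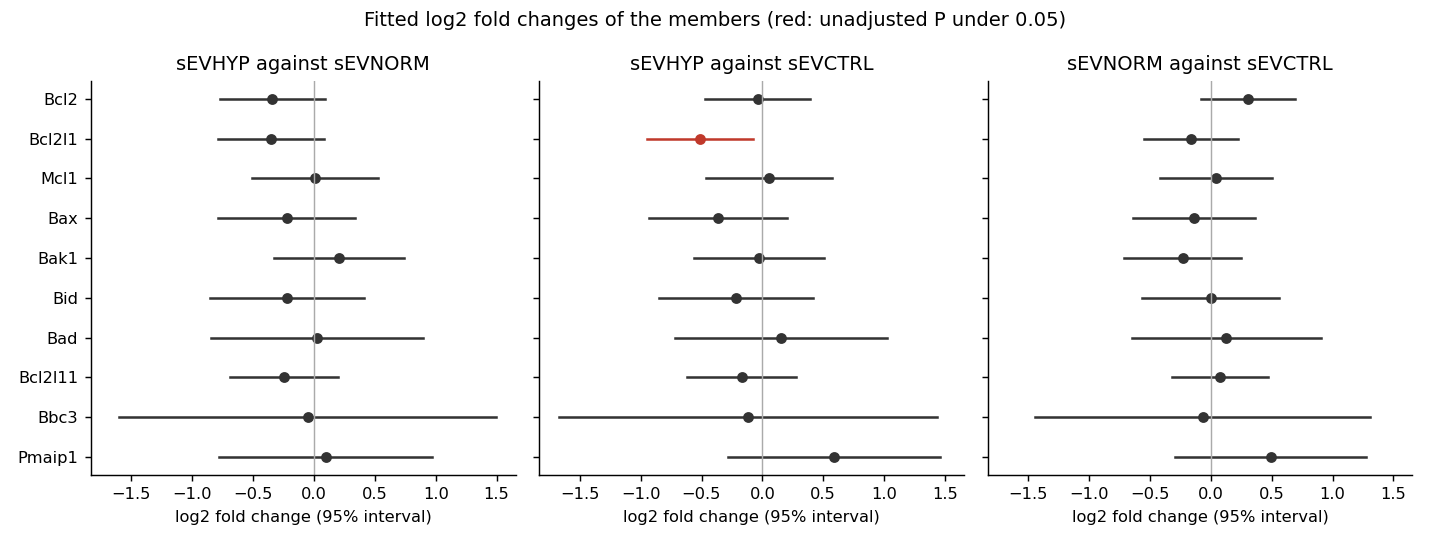
Points give the log2 fold change of each member (vertical axis) and lines its 95% interval (horizontal axis) in the 3 comparisons, from edgeR. The interval lies wholly to one side of 0 for Bcl2l1 with sEVHYP against sEVCTRL, from -0.95 to -0.08, and crosses 0 in all other cases.

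The precision differed between members. Within groups, the SD of log2 CPM was 0.16 for Bcl2l1 and 0.23 for Bcl2 and Bcl2l11, below the median of 0.32 over all genes tested. It was 0.26 for Mcl1, Bax and Bak1, 0.41 for Bad, 0.48 for Pmaip1 and 0.87 for Bbc3. Some members share exonic bases with a neighbour. On the opposite strand, Bad overlaps Gpr137 by 524 bases, and Gpr137 had 56 to 108 counts per library where Bad had 68 to 155. Bid overlaps Bcl2l13, itself a relative of the family, by 628 bases (1357 to 1853 counts), and Bak1 overlaps Ggnbp1 by 437 bases (29 to 98 counts). Whether reads were assigned by strand is not given in the sources used here, so some of these reads may belong to the partner gene. Bax shares 192 bases on its own strand with Gm45808, which was listed at 0 counts in all libraries.

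Ratios between an effector or BH3-only gene and a guardian describe the balance of transcripts within a library. They are given per kilobase on the log2 scale, with no test. Bax to Bcl2 was 0.33 ± 0.35 (SD, n = 3) with sEVCTRL, -0.12 ± 0.19 (SD, n = 3) with sEVNORM and 0.02 ± 0.13 (SD, n = 2) with sEVHYP. The sEVCTRL libraries were at 0.59, -0.07 and 0.46, the sEVNORM libraries at 0.01, -0.02 and -0.34, and the sEVHYP libraries at -0.07 and 0.11, so sEVCTRL replicate 2 lay among the treated glands. Bax to Bcl2l1 was 0.96 ± 0.43 with sEVCTRL, 0.98 ± 0.40 with sEVNORM and 1.116 ± 0.34 with sEVHYP. Bcl2l11 to Mcl1 was -3.97 ± 0.19 with sEVCTRL, -3.92 ± 0.15 with sEVNORM and -4.20 ± 0.12 with sEVHYP. Both sEVHYP values, -4.12 and -4.29, lay below all sEVNORM values, the lowest of which was -4.09, while sEVCTRL replicate 2, at -4.18, lay between them.

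Over the 8 libraries, some members moved with marker genes of cell types. Of 120 relations of a member with the mean log2 CPM of a marker list, 4 passed an adjusted P of 0.05 by Pearson's r and 4 by Spearman's rho, of which 3 passed by both (exact permutation tests, two-sided, Benjamini-Hochberg over the 120). Bcl2l11 was higher where B cell markers were higher, with Pearson's r = 0.94 (exact permutation P = 0.000918, adjusted 0.0367) and Spearman's rho = 0.88 (exact permutation P = 0.00724, adjusted 0.0966). Without the 2 libraries farthest from the median of the markers, sEVHYP replicate 2 and sEVNORM replicate 2, r was 0.87. Bax was lower where luminal markers were higher, with r = -0.93 (exact permutation P = 2.48e-05, the smallest that 8 libraries allow, adjusted 0.00298), rho = -1 (exact permutation P = 4.96e-05, adjusted 0.00595) and r = -0.93 without the 2 farthest libraries. Bax was also lower where basal epithelial markers were higher (r = -0.94, exact permutation P = 0.000273, adjusted 0.0164, rho = -0.98, exact permutation P = 0.000397, adjusted 0.0159, and r = -0.82 without 2 libraries). Its r with B cell markers was 0.88, a relation that missed the threshold (exact permutation P = 0.00474, adjusted 0.0947; rho = 0.86, exact permutation P = 0.0107, adjusted 0.117; r = 0.82 without 2 libraries). Mcl1 was lower where white adipocyte markers were higher (r = -0.92, exact permutation P = 0.00161, adjusted 0.0484, rho = -0.98, exact permutation P = 0.000397, adjusted 0.0159, and r = -0.83 without 2 libraries). Bid was lower where basal epithelial markers were higher and passed by rho alone (r = -0.86, exact permutation P = 0.00283, adjusted 0.0679, rho = -0.95, exact permutation P = 0.00114, adjusted 0.0342, and r = -0.54 without 2 libraries). Bcl2l1 had passed the unadjusted edgeR threshold for sEVHYP against sEVCTRL, but not adjustment over all genes. For Bcl2l1, the strongest of the 12 relations by r was with endothelial markers, at 0.70, and it missed the threshold (exact permutation P = 0.0491, adjusted 0.245, rho = 0.79, exact permutation P = 0.0279, adjusted 0.176, and r = 0.82 without 2 libraries). Its r with B cell markers was -0.12 (exact permutation P = 0.784, adjusted 0.869; rho = -0.31, exact permutation P = 0.462, adjusted 0.759; r = -0.45 without 2 libraries). The points are single libraries whose members and markers share 1 library total, and the marker lists are not independent of each other. The permutations ran over all 8 libraries without regard to treatment, so differences between treatments also enter these relations.

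**Figure D4:**
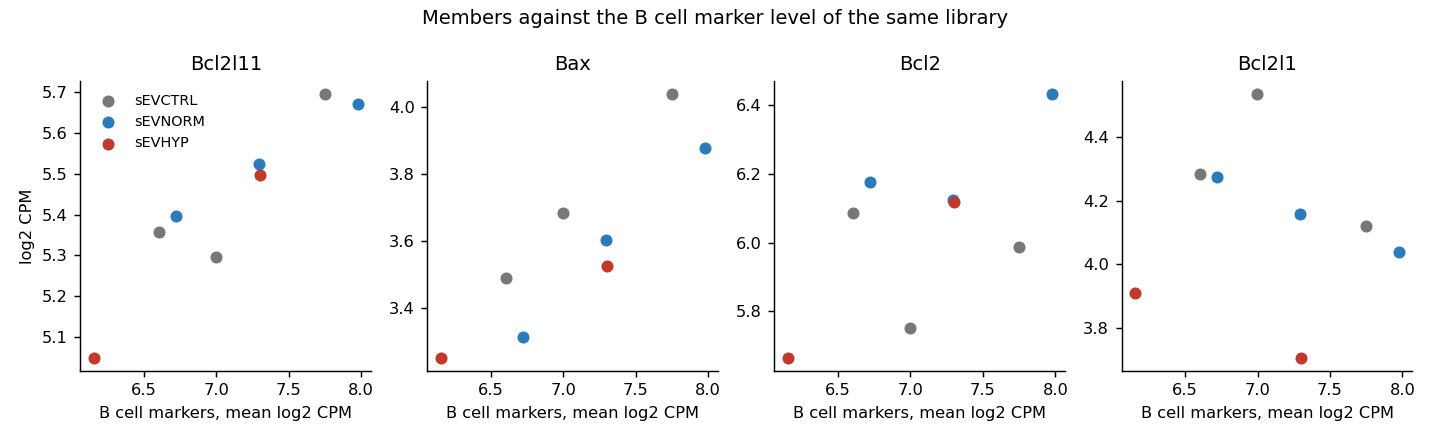
The log2 CPM of 4 members (vertical axes) is plotted against the mean log2 CPM of 9 B cell markers in the same library (horizontal axes), with sEVCTRL in gray, sEVNORM in blue and sEVHYP in red. Bcl2l11 follows the markers (r = 0.94, n = 8), Bax less closely (r = 0.88), and the 2 sEVHYP points of Bcl2l1 are the lowest at both a low and a middle marker level.

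For each member, the 3 genes with the most similar log2 CPM over the 8 libraries were found among 11748 tested genes with a mean of at least 5 CPM, as a description. For Bcl2l1 they were Lztr1 (r = 0.98), Slc8b1 (r = 0.95) and Ccdc73 (r = 0.94), and for Bcl2 they were Atp11b (r = 0.98), Tm6sf1 (r = 0.97) and Zfc3h1 (r = 0.96). Ywhah, Trak2 and Pde4b were most like Mcl1 (r = 0.96, 0.96 and 0.95). Ccdc88c, Trim39 and Rexo4 led for Bax (r = 0.98, 0.98 and 0.97), and Mrps18b, Slc35a4 and Tomm22 for Bak1 (r = 0.99, 0.98 and 0.98). Among the BH3-only genes, Bcl2l11 had the closest partner of all, Trib2 (r = 1.00 after rounding), before Apol7e and Gm49396 (both 0.99). The partners were Dxo, Zfp87 and Sf3b3 for Bid (0.97 each), Tmem177, Lrrc32 and Ext2 for Bad (0.98, 0.98 and 0.97), Mtss1, Mtpn and Rif1 for Pmaip1 (0.98, 0.97 and 0.97), and Gnb4, Zfp715 and 2310033P09Rik for Bbc3 (0.96, 0.95 and 0.92). Each r is the highest of 11748, so its size is no test. Among the members themselves, Bax and Bcl2l11 were the most alike by Pearson's r (0.81). Bax and Bid, and Mcl1 and Pmaip1, were close to them (r = 0.79 each). By Spearman's rho, Bax and Bid were the most alike (0.90), with Bax and Bcl2l11 at 0.74. Bcl2l1 and Pmaip1 were the most opposed by both (r = -0.76, rho = -0.76, n = 8).

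The other 16 family genes measured were all tested, and 0 of them passed an unadjusted P of 0.05 in edgeR in any comparison. Their median log2 fold change was 0.02 for sEVHYP against sEVNORM, 0.07 for sEVHYP against sEVCTRL and 0.03 for sEVNORM against sEVCTRL. Bnip3 is a mitophagy receptor known as a target of hypoxia-inducible factor. Taken gene by gene, Bnip3 was the only one with a mean level per kilobase above that of Mcl1, at 114 ± 36.0 CPM per kilobase (SD, n = 8), with overlapping ranges. It was at 212, 325 and 313 CPM with sEVCTRL, at 260, 167 and 312 CPM with sEVNORM, and at 124 and 347 CPM with sEVHYP. The sEVHYP pair thus held both the lowest and the highest library of the series, and the log2 fold change was -0.06 against sEVNORM. Its relative Bnip3l varied little, at 48.6 ± 4.24 CPM per kilobase, with log2 fold changes of 0.01 against sEVNORM and 0.08 against sEVCTRL. The 3 genes of the hematopoietic guardian A1 (Bcl2a1a, Bcl2a1b and Bcl2a1d), at 18.2, 61.0 and 33.6 CPM per kilobase, share long identical stretches, so the split of reads among them is uncertain. The place of each beside Mcl1 is uncertain as well, and their combined level was not compared with that of Mcl1. Becn1, which carries a BH3 domain and acts in autophagy, was at 10.5, and Bcl2l13 at 8.43 CPM per kilobase. Bcl-w (Bcl2l2), at 2.46, and the BH3-only genes Bmf, at 2.24, and Bik, at 1.21 CPM per kilobase, were scarce. Bok, an effector relative, was at 1.014, and Bcl2l12 and Bcl2l14 at 1.47 and 1.38 CPM per kilobase. The largest fitted differences were in scarce genes, such as Bcl2l10 at 1.13 for sEVHYP against sEVNORM (SE 0.66, edgeR unadjusted P = 0.120) with 3 to 17 counts per library. Bcl2l15 and Hrk had at most 17 and 12 counts in any library. Bcl2l2, Bcl2l15, Bnip3 and Bnip3l also share identical stretches with a pseudogene or an overlapping gene model, and their counts are uncertain to that extent.

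Downstream of the mitochondrial pores, the 12 genes of the apoptosome and the caspases had 0 genes past an unadjusted P of 0.05 for sEVHYP against sEVNORM and for sEVNORM against sEVCTRL in edgeR. Against sEVCTRL, where 2.45% of all genes passed, 1 gene rose with sEVHYP at that threshold. This was Cycs, which encodes cytochrome c, a part of both the respiratory chain and the apoptosome. Cycs was at 101, 133 and 76.3 CPM with sEVCTRL, at 103, 114 and 94.99 CPM with sEVNORM, and at 149 and 144 CPM with sEVHYP. Both sEVHYP libraries were above all 6 others, and the log2 fold change was 0.50 (SE 0.22, edgeR unadjusted P = 0.0483) against sEVCTRL and 0.49 against sEVNORM. Skeletal muscle markers moved the same way: 10 of 12 had a positive log2 fold change for sEVHYP against sEVCTRL (median 1.02, 0 without overlap) and 11 of 12 against sEVNORM (median 2.39, 10 without overlap), with 0 past an edgeR unadjusted P of 0.05 in either. Over all genes tested, 12.8% did not overlap against sEVCTRL and 22.8% against sEVNORM. The 12 muscle markers summed to 794, 11340 and 2848 CPM with sEVCTRL, to 3725, 37.7 and 1952 CPM with sEVNORM and to 5800 and 15903 CPM with sEVHYP, and 1 of the 12, Myh2, was at 0 in sEVNORM replicate 2. Their part in the Cycs difference was not tested. The 8 inhibitors of apoptosis had 0 genes past the threshold in each comparison, with medians of -0.11, -0.03 and 0.11 for sEVHYP against sEVNORM, sEVHYP against sEVCTRL and sEVNORM against sEVCTRL.

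In the p53 pathway, which induces Bbc3, Pmaip1 and Bax, 2 of 14 genes were higher with sEVHYP than with sEVNORM at an unadjusted P under 0.05, 0 passed against sEVCTRL, and 1 was lower with sEVNORM than with sEVCTRL. The shares of all genes past this threshold in these comparisons were 3.95%, 2.45% and 1.62%. Phlda3, a p53-induced inhibitor of Akt signaling, was at 23.6, 17.2 and 42.1 CPM with sEVCTRL, at 19.3, 12.8 and 13.1 CPM with sEVNORM, and at 41.1 and 24.8 CPM with sEVHYP. Both sEVHYP libraries lay above the sEVNORM libraries but within the range of sEVCTRL. The log2 fold change was 1.13 (SE 0.38, edgeR unadjusted P = 0.0151) for sEVHYP against sEVNORM and -0.87 (SE 0.35, edgeR unadjusted P = 0.0322) for sEVNORM against sEVCTRL. Tnfrsf10b, a receptor for the death ligand TRAIL, was at 9.90, 11.4 and 12.5 CPM with sEVCTRL, at 8.93, 9.18 and 8.75 CPM with sEVNORM and at 13.2 and 11.8 CPM with sEVHYP, a log2 fold change of 0.48 (SE 0.19, edgeR unadjusted P = 0.0338) against sEVNORM. The p53 targets among the members, Bbc3, Pmaip1 and Bax, did not pass this threshold.

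Of 22 genes that act on the members, 2 were higher with sEVHYP than with sEVNORM at an unadjusted P under 0.05, 1 was lower than with sEVCTRL, and 0 passed for sEVNORM against sEVCTRL. Those higher, Vdac1 and Vdac3, encode channels of the outer mitochondrial membrane that also carry metabolites. Vdac1 was at 134, 210 and 188 CPM with sEVCTRL, at 159, 120 and 158 CPM with sEVNORM, and at 193 and 240 CPM with sEVHYP, a log2 fold change of 0.57 (SE 0.22, edgeR unadjusted P = 0.0317) against sEVNORM. For Vdac3 the difference was 0.50 (SE 0.16, edgeR unadjusted P = 0.0122), from 96.3, 87.6 and 90.7 CPM to 118 and 140 CPM. In both genes the sEVHYP libraries were above all sEVNORM libraries. The lowest and the highest Vdac1 level were in sEVNORM replicate 2 and sEVHYP replicate 2, the libraries with the lowest and the highest skeletal muscle sum, 37.7 and 15903 CPM. As given beside Cycs, 10 of 12 muscle markers were higher with sEVHYP than with sEVNORM without overlap, and their part in the Vdac1 and Vdac3 differences was not tested. Ddit3, which encodes the stress factor CHOP that induces Bcl2l11, fell at that threshold with sEVHYP against sEVCTRL: it was at 17.4, 12.8 and 25.3 CPM with sEVCTRL and 12.5 and 11.2 CPM with sEVHYP. Its log2 fold change was -0.64 (SE 0.27, edgeR unadjusted P = 0.0452), and its sEVNORM libraries were at 14.5, 16.2 and 14.9 CPM. None of these genes passed adjustment over all genes (0 calls in edgeR), and the background shares given for the members hold for these lists as well.

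**Figure D5:**
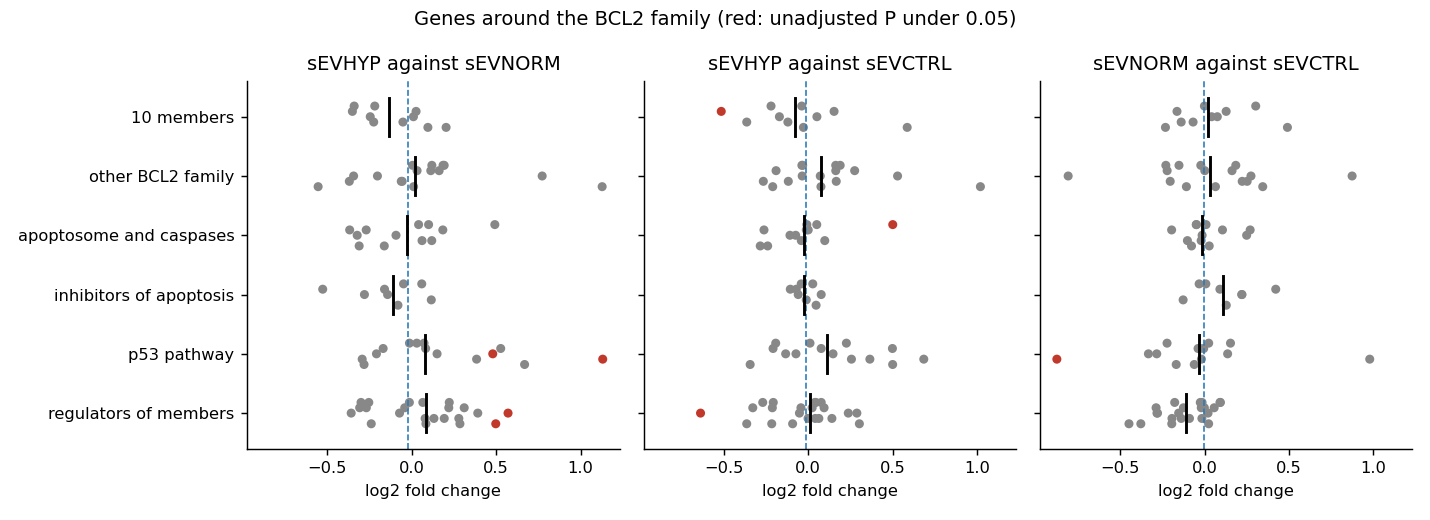
Each point is 1 gene, placed by its log2 fold change (horizontal axis) in the list named on the vertical axis, for the 3 comparisons. Black bars are list medians, the dashed line is the median over all genes tested, and red points have an unadjusted P under 0.05 in edgeR. The medians of the 10 members are -0.14, -0.08 and 0.02, and most points lie within 0.5 of 0.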

How the data were processed

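The authors aligned reads of the SENSE mRNA-Seq libraries with STAR to mm10 and estimated reads per gene of the Ensembl annotation with RSEM 1.2.12, per the labels and the paper's methods. The deposited values are counts per gene, whole numbers without normalization. How they were rounded is not given in the sources used here. Groups came from the treatment labels. The labels do not say that libraries of a group came from separate animals, although the paper counts animals per group.

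The members, the gene lists and the marker lists were chosen with earlier results of these data known. Symbols, positions and lengths came from GENCODE M21 (GRCm38): 51596 of 51789 genes had a symbol, and genes without one held 0.0389% of the counts. All 3 groups entered 1 model of edgeR 4.0.16 (R 4.3.3), with low genes removed by filterByExpr (minimum count 10), TMM factors between 0.975 and 1.02, and 5 residual and 4.08 prior degrees of freedom. Intervals of log2 fold changes are 95% intervals of the fitted difference between groups, computed from its SE under the model. They are not ranges of single libraries. Log2 CPM used a prior count of 2. The study's threshold, an unadjusted P of 0.05, was kept beside Benjamini-Hochberg adjusted values. The procedure was tested on simulated data. No library was a copy of another.

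The genes named are the 10 members, the other BCL2 family genes, genes of the pathway lists with an unadjusted P under 0.05 in any comparison, and for each member the 3 genes with the highest r. Genes named for sharing exons or sequence are outside this rule. Alternatives were DESeq2 size factors, edgeR or DESeq2 1.42.0 on only the groups compared, other count filters, the replicate block, B and T cell or skeletal muscle markers as covariates, the longest transcript as the length, and each library left out.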

Additional observations from a re-analysis of the deposited data

How the results depend on the processing

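No member passed adjustment over all genes in the alternatives run, and the direction of the Bcl2l1 difference between sEVHYP and either group was the same in all of them. The call of Bcl2l1 for sEVHYP against sEVCTRL was lost with edgeR or DESeq2 on only the groups compared and with the replicate block, each of which left 0 members past an unadjusted P of 0.05. Same-numbered libraries correlated between -0.42 and 0.37 in their deviations from group means. The values were 0.37 and 0.34 between sEVCTRL and sEVHYP, and -0.13 and -0.31 between sEVNORM and sEVHYP. Between sEVCTRL and sEVNORM they were -0.29, -0.42 and -0.01. Deviations of 2 sEVHYP libraries from their mean mirror each other, so these values cannot decide whether replicate numbers pair the libraries. With the replicate block, Bcl2l1 was at -0.42 (edgeR unadjusted P = 0.0711). B and T cell markers as a covariate left 1 member past the threshold for sEVHYP against sEVNORM (Bcl2l1, -0.43, unadjusted P = 0.0459), and muscle markers 2 for sEVHYP against sEVCTRL (Bcl2l1 and Pmaip1). Leaving out each library in turn gave 0 to 1 members past the threshold in each comparison. The call was lost without sEVCTRL replicate 3 or sEVHYP replicate 1 for Bcl2l1, with a range of -0.62 to -0.40. A call was gained without sEVHYP replicate 1 for Bcl2 (sEVHYP against sEVNORM) and without sEVCTRL replicate 2 for Bak1 (sEVNORM against sEVCTRL). Requiring 10 counts in every library removed Bbc3, which was then not tested.

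Over all genes, the 706 with an unadjusted P under 0.05 for sEVHYP against sEVNORM became 1068 with edgeR and 1195 with DESeq2 on only these groups, 1102 with no count filter, and 1082 with the B and T cell covariate. The 438 for sEVHYP against sEVCTRL became 672 with no filter and 831 with the B and T cell covariate, and the 290 for sEVNORM against sEVCTRL became 533, 543 and, with muscle markers, 441. DESeq2 gave 83, 14 and 3 adjusted calls in these comparisons, and edgeR without the filter 1 in the first. With a library left out, the counts ran from 391 (without sEVHYP replicate 2) to 990, from 348 to 1475 (without sEVCTRL replicate 2) and from 226 to 1021 (without sEVCTRL replicate 2; 567 without sEVCTRL replicate 1), with 0 to 1 adjusted calls for sEVHYP against sEVCTRL.

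Some values changed sign, 22 of 237 member values under the other settings and 34 of 240 with a library left out. Not all of them were near 0 in the main fit. There, Bax was at -0.23 and Bid at -0.22 for sEVHYP against sEVNORM, and Bid at -0.22 and Bcl2l11 at -0.17 for sEVHYP against sEVCTRL. For sEVNORM against sEVCTRL, Bid was at 8.44e-05 with no filter and 0.0011 with 10 counts in every library. With the replicate block, sEVHYP against sEVNORM had Mcl1 at -0.12, Bbc3 at 0.057 and Pmaip1 at -0.052, sEVHYP against sEVCTRL had Mcl1 at -0.079 and Bak1 at 0.0496, and sEVNORM against sEVCTRL had Bid at 0.033. With B and T cell markers, the corresponding values were Bid 0.0295, Bad -0.0196 and Bbc3 0.11, then Bak1 0.092, and Mcl1 -0.015. With muscle markers they were Bax 0.052, Bid 0.041, Bad -0.18 and Bbc3 0.41, then Bcl2 0.0073, Bak1 0.054 and Bbc3 0.042, and Mcl1 -0.065 and Bcl2l11 -3.03e-07. The ranges with a library left out were, for sEVHYP against sEVNORM, Mcl1 -0.14 to 0.18, Bad -0.15 to 0.29, Bbc3 -1.23 to 0.57 and Pmaip1 -0.13 to 0.54. For sEVHYP against sEVCTRL they were Bcl2 -0.28 to 0.17, Mcl1 -0.097 to 0.19, Bak1 -0.24 to 0.0999, Bid -0.44 to 0.079, Bad -0.034 to 0.53, Bcl2l11 -0.41 to 0.036 and Bbc3 -1.30 to 0.51. For sEVNORM against sEVCTRL they were Mcl1 -0.13 to 0.17, Bax -0.29 to 0.0046, Bid -0.22 to 0.28, Bad -0.14 to 0.50, Bcl2l11 -7.95e-05 to 0.19 and Bbc3 -0.43 to 0.34. The cause was not tested. With 2 libraries of sEVHYP, 1 library left out leaves a lone one, whose spread is assumed to be that of the other groups. Depth limits Bbc3 and Bad, with at most 33 and 155 counts per library.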
